A study of Mus musculus with 39 samples.

Results

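The maturation of the wild-type (WT) mouse testis was described from 16 of the 39 arrays of the series. They comprised all arrays labelled WT, 8 from whole testes taken at 2 weeks of age and 8 at 2 months. Probe sets annotated with a single gene symbol were considered, and the brightest stood for each gene. The 18646 genes that passed a filter on their level were compared. The WT mice were littermates of 3 lines that carried Prkar1a fl/fl alleles with a Cre transgene: prKO (Sf1:Cre), srKO (Amh:Cre) and lrKO (Cyp11a1:Cre). Sf1 drives Cre in the somatic cells of the gonad and adrenal, Amh in Sertoli cells and Cyp11a1 in steroid-making cells. The line arrays, 4 per line and age but 3 for prKO at 2 months, were used only to ask whether a line changed between the ages as the WT did. Strain, litter and whether the WT littermates carried fl/fl alleles without Cre were not given in the sources used here.

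The testis makes sperm in tubules, where germ cells develop against Sertoli cells inside a sheath of contractile peritubular myoid cells. Leydig cells between the tubules make testosterone. In the mouse the first wave of germ cells starts shortly after birth. At 2 weeks its leading cells are in meiotic prophase and no spermatids have formed, whereas the adult tubule holds every stage from stem cell to elongated spermatid.

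Levels are log2 intensities, so 1 unit is a 2-fold difference, and are relative within an array. A change is the mean at 2 months minus the mean at 2 weeks, tested with limma, and p-values were adjusted by the Benjamini-Hochberg method across 18646 genes. A gene "rose" or "fell" when the adjusted p was under 0.05. Where the lower mean was under 4.62, the filter value (the 25th percentile of all values, not a detection limit), the fold is given as a lower bound. In whole testes, fewer cells of a type and less RNA per cell cannot be told apart.

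Of the 18646 genes, 15206 (81.6%) passed the test; 4991 (26.8%) rose and 10215 (54.8%) fell. The median change of all genes was -0.24, and with each array centred on its own median the calls split into 5536 higher and 8781 lower, a share of 38.7% higher against 32.8% on the deposited scale. At least 2-fold, 5879 genes (31.5%) changed: 2634 (14.1%) rose and 3245 (17.4%) fell. Rises reached much further than falls: 476 genes rose and 0 fell at least 16-fold, and 918 rose and 11 fell at least 8-fold. The most extreme changes were 8.01 and -3.62. All 8 arrays of 2 months lay above all 8 of 2 weeks in 3797 genes (20.4%) and below them in 7155 (38.4%), so that the ages did not overlap in 10952 (58.7%). These are the backgrounds against which the gene groups below are read.

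The array medians ran from 5.98 to 6.02 at 2 weeks and from 5.81 to 5.92 at 2 months. 1 label, the extraction protocol, names adrenal glands while all others name whole testis. Of the markers of adrenal cortex, Cyp11b1 and Cyp11b2 had means between 4.67 and 4.83 at both ages and Mrap had means of 7.21 and 7.55, and Sertoli, Leydig and germ cell markers were high. The arrays of the same age correlated at no less than 0.95 at 2 weeks and 0.985 at 2 months. Adam7, an epididymal gene, was above 5 on 4 arrays: 2-week replicates 1 (5.31) and 4 (5.21), and 2-month replicates 4 (6.11) and 7 (5.62). Spink8 stood high on the same arrays, at 8.23, 11.15, 8.68 and 7.72, against 4.51 to 6.38 on the other 12. Without these 4 arrays 2569 genes rose and 3150 fell at least 2-fold.

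**Figure D1:**
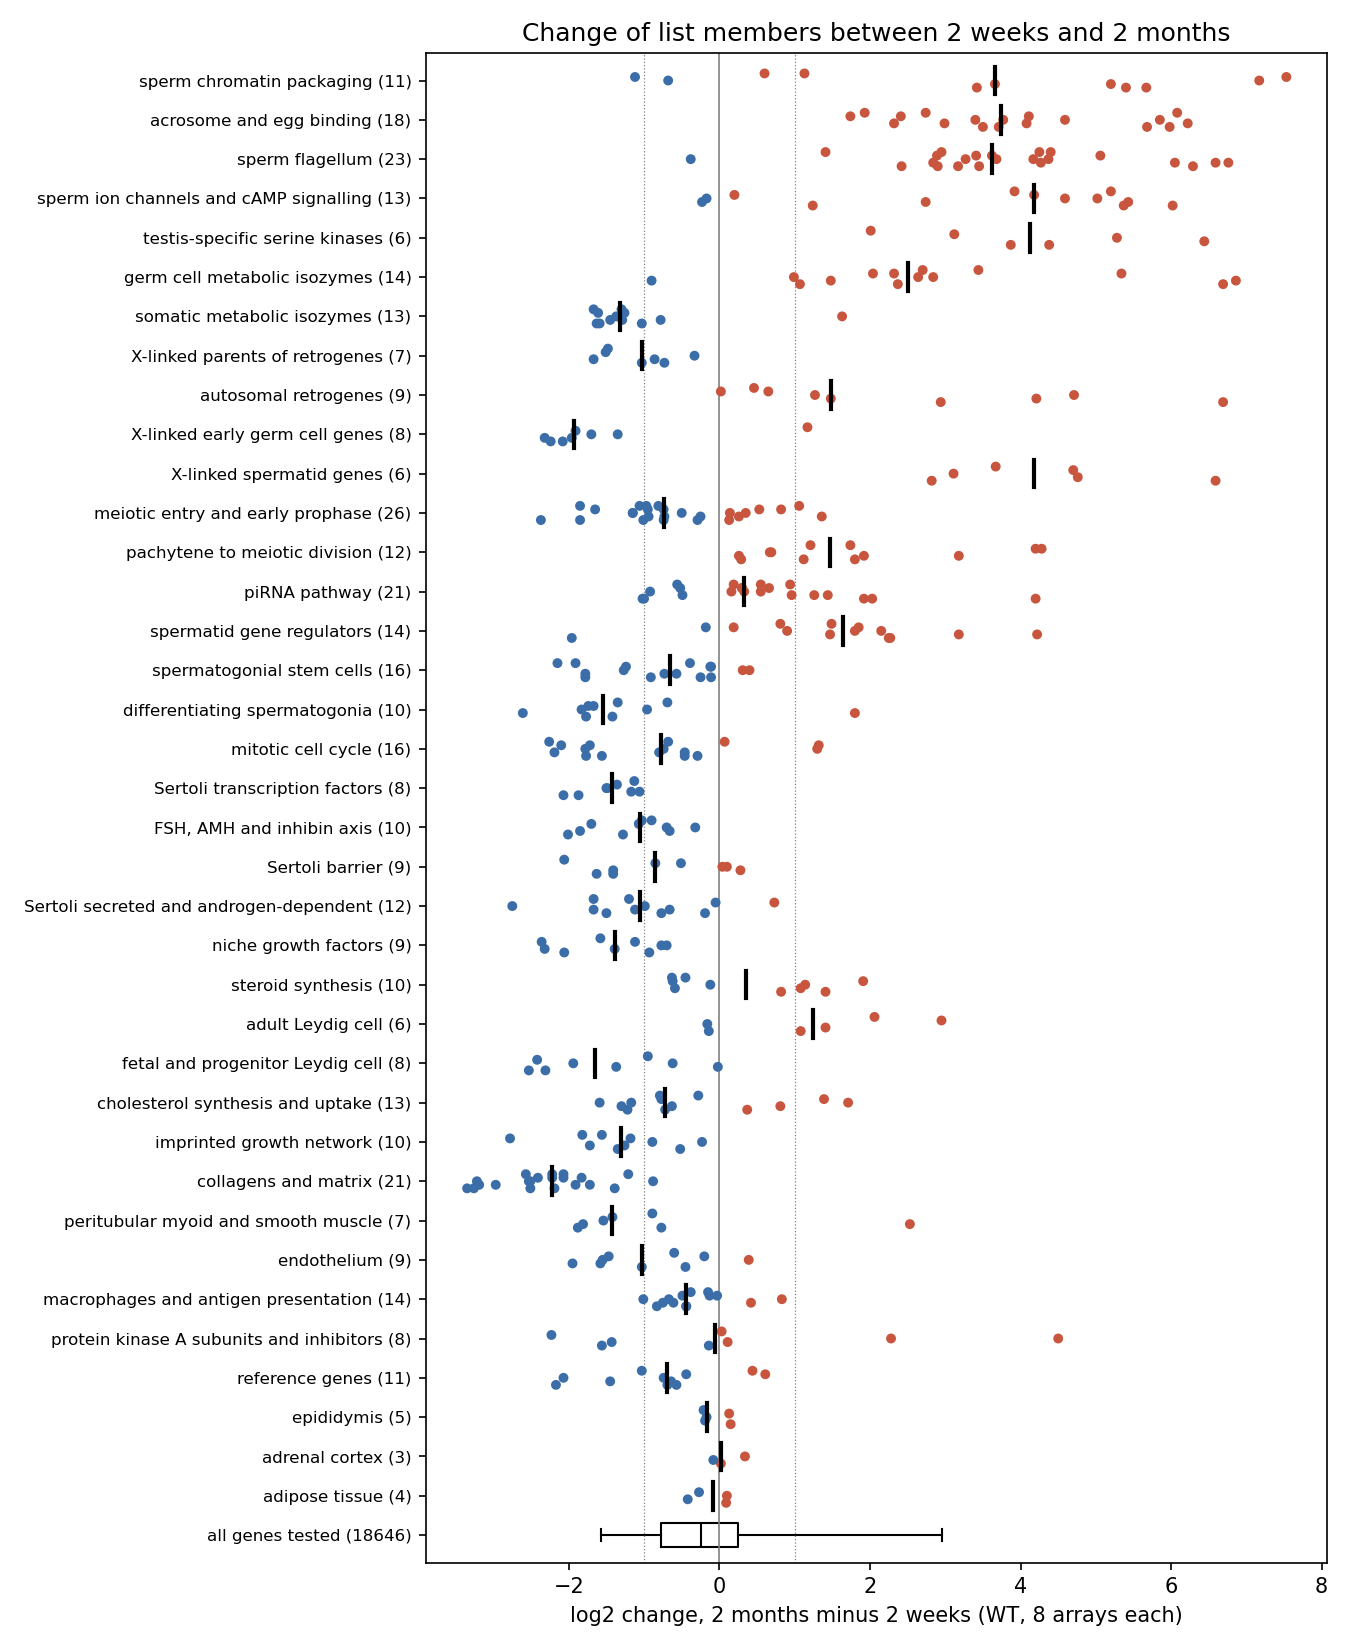
Log2 change between 2 weeks and 2 months (x axis, 8 WT arrays per age) of each tested member of 37 gene lists, with the number tested in brackets; red dots are positive and blue negative, black bars are list medians and dotted lines mark a 2-fold change. The box at the bottom shows all 18646 genes (quartiles, with whiskers from the 5th to the 95th percentile): sperm chromatin, acrosome, flagellum, channel and kinase lists lie to its right, and collagens and matrix furthest to its left.

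Genes of the spermatid rose most. Just upstream of 2 of them, Tnp1 and Prm1, and of the retrogene Pgk2 with its X-linked parent Pgk1, the promoter windows differ in CpG content, which is why they are shown. Each run is the 250 bases before the annotated start, 5′ to 3′ along the gene's strand, from RefSeq on GRCm38.p6, with CpG dinucleotides in capitals.
Tnp1, chr1:73015900-73016149, minus strand: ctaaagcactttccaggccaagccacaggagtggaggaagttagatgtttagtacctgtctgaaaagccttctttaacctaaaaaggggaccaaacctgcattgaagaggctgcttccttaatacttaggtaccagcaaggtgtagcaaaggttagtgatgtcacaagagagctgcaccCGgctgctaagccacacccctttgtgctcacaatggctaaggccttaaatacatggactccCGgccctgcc
Prm1, chr16:10796824-10797073, minus strand: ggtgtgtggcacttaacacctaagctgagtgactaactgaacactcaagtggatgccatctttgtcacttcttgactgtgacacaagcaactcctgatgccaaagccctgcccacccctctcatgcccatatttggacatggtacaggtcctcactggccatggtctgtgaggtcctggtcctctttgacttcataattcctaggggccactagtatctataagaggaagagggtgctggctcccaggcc
Pgk2, chr17:40208610-40208859, minus strand: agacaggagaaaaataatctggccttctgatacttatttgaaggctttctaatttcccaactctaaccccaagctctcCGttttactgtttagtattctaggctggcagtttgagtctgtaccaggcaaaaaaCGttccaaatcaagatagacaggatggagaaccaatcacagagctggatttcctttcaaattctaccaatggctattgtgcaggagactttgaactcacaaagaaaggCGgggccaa
Pgk1, chrX:106186850-106187099, plus strand: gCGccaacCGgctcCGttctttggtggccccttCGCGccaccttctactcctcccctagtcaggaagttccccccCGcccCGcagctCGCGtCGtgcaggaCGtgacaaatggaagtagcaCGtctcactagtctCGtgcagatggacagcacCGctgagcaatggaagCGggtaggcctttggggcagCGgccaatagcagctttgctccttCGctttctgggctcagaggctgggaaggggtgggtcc
These windows hold 2, 0, 3 and 17 CpG, in that order.

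Over all protein-coding genes tested that have such a window (13159 of 16319, 80.6%), the median was 13 CpG. Genes that rose at least 2-fold had a median of 8, those that rose at least 16-fold a median of 3, and those that fell at least 2-fold a median of 16. Windows with no CpG made up 3.28% of all, 7.81% of the 2-fold rises, 13.5% of the 16-fold rises and 0.798% of the 2-fold falls. The median GC content was 58% over all, 49.6% for the 16-fold rises and 61.2% for the 2-fold falls. The palindrome TGACGTCA, the full cAMP response element, reads the same on both strands. It was present in 2.3% of all windows, 2.43% of the 2-fold rises and 0.898% of the 16-fold rises. The last share is 3 of 334 windows, and the element itself contains a CpG, of which these windows hold few. These shares describe the windows, with no test, and a match is no shown site.

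Sperm chromatin. Transition proteins and protamines replace histones as the spermatid nucleus condenses. Of 11 tested genes of this group, 8 rose and 1 fell at least 2-fold, with a median change of 3.66. Tnp2, a transition protein, ran from 4.75 to 5.24 (median 5.07) at 2 weeks and from 12.34 to 12.85 (median 12.57) at 2 months. That is a change of 7.53 ± 0.09 (SE), 185-fold, with an adjusted p of 5e-22. Tnp1 went from 4.69 to 5.49 (median 4.86) to between 11.85 and 12.3 (median 12.08), a change of 7.17 ± 0.1. For both genes every 2-month array lay more than 6 units above every 2-week array. Prm1, the protamine that packs sperm DNA, was at 5.98 to 6.51 (median 6.17) at 2 weeks and 11.27 to 11.81 (median 11.67) at 2 months, a 42.3-fold rise (adjusted p = 3.4e-20). H1f7, a spermatid linker histone, rose 50.8-fold. H1f6, the testis linker histone of spermatocytes, rose by 1.13. The testis core histones H2ac1 and H2bc1, which are made before the spermatid stage, went the other way: H2ac1 fell by 1.12 from a mean of 13.18, and H2bc1 fell by 0.68 from 12.38.

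Acrosome and egg binding. The acrosome is the enzyme-filled cap that the sperm opens at the egg. All 18 tested genes of this list rose at least 2-fold, with changes from 1.74 to 6.22 and a median of 3.74, and in all 18 the ages did not overlap. Acrv1, an acrosomal matrix protein, stood at 4.52 to 5.17 (median 4.86) and then 10.95 to 11.22 (median 11), a 74.3-fold rise with an adjusted p of 4.1e-21. Spam1, the sperm hyaluronidase, was at 3.28 to 3.44 (median 3.35) at 2 weeks and 9.24 to 9.65 (median 9.43) at 2 months, at least 28.2-fold. Pdilt, a chaperone of the sperm surface proteins, rose at least 57.5-fold. Adam3, a surface protein needed for sperm migration, behaved differently at 2 weeks, where it ranged from 4.9 to 8.28 (median 6.68) before it reached 12.42 to 12.55 (median 12.44). The 2-week arrays were thus unequal for Adam3, and its change was 5.85 over all arrays, 6.58 among replicates 1 to 4 and 5.12 among replicates 5 to 8.

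Flagellum. The sperm tail is an axoneme wrapped in outer dense fibres and a fibrous sheath. Of 23 genes, 22 rose at least 2-fold (median 3.62). Akap4, the main fibrous sheath protein and an X-linked gene, was at 5.07 to 5.67 (median 5.43) at 2 weeks and 11.9 to 12.08 (median 12) at 2 months, a 96.5-fold rise (adjusted p = 3.2e-22). Akap3 of the same sheath rose 78.5-fold, Ropn1, which binds both, 66.1-fold, and Oaz3, a germ cell antizyme, 108-fold. The exception was Odf1, an outer dense fibre gene, whose probe set was at 9.85 to 10.14 at 2 weeks and was at 9.44 to 9.8 at 2 months, a fall of 0.38 on the log2 scale (adjusted p = 5.2e-05).

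Channels, kinases and the leading rises. Of 13 genes for sperm ion transport and cAMP signalling, 10 rose at least 2-fold (median 4.18). Catsper1, a pore subunit of the sperm calcium channel, went from 4.2 to 4.69 (median 4.53) to between 9.67 and 10.1 (median 9.83), at least 37.7-fold. Atp1a4, the sperm sodium pump, rose 64.9-fold, Kcnu1, the sperm potassium channel, at least 39.8-fold, and Adcy10, the bicarbonate-sensitive adenylyl cyclase, 36.6-fold. Slc9a8, a proton exchanger, rose by 0.2, whereas Hvcn1, a proton channel, fell by 0.23 and Atp2b4, a calcium pump, fell by 0.17. All 6 testis-specific serine kinases, which act in spermatids, rose at least 2-fold: Tssk2 86.9-fold, Tssk3 38.9-fold, Tssk1 20.8-fold and Tssk6 14.7-fold among them.

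The named gene with the highest rise was Smcp, a cysteine-rich protein of the sperm mitochondrial sheath. It was at 4.39 to 4.77 (median 4.52) at 2 weeks and 12.33 to 12.66 (median 12.52) at 2 months, at least 234-fold with an adjusted p of 1.5e-23. Other genes among the 12 largest rises in log2 change were Ms4a14 (at least 167-fold), Stat4 (147-fold), a transcription factor better known from T cells, Lelp1 (at least 120-fold) and Pmfbp1 (at least 117-fold), which anchors the sperm head to the tail. Spz1, a germ cell transcription factor, rose at least 105-fold, Cylc2, of the sperm head skeleton, at least 102-fold, and Csnka2ip at least 71.3-fold. Sly, a Y-linked gene of many near-identical copies, rose at least 66.2-fold. It has 6 probe sets, and their average gave a change of 5.67 in place of 7.43. In all, 199 genes were under 4.62 on all 8 arrays of 2 weeks and at least 1 unit above it on all 8 of 2 months. Of those, 121 carry names of the classes passed over here: model, clone, small RNA, pseudogene or receptor family names. The reverse was found for 1 gene, Mir493.

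**Figure D2:**
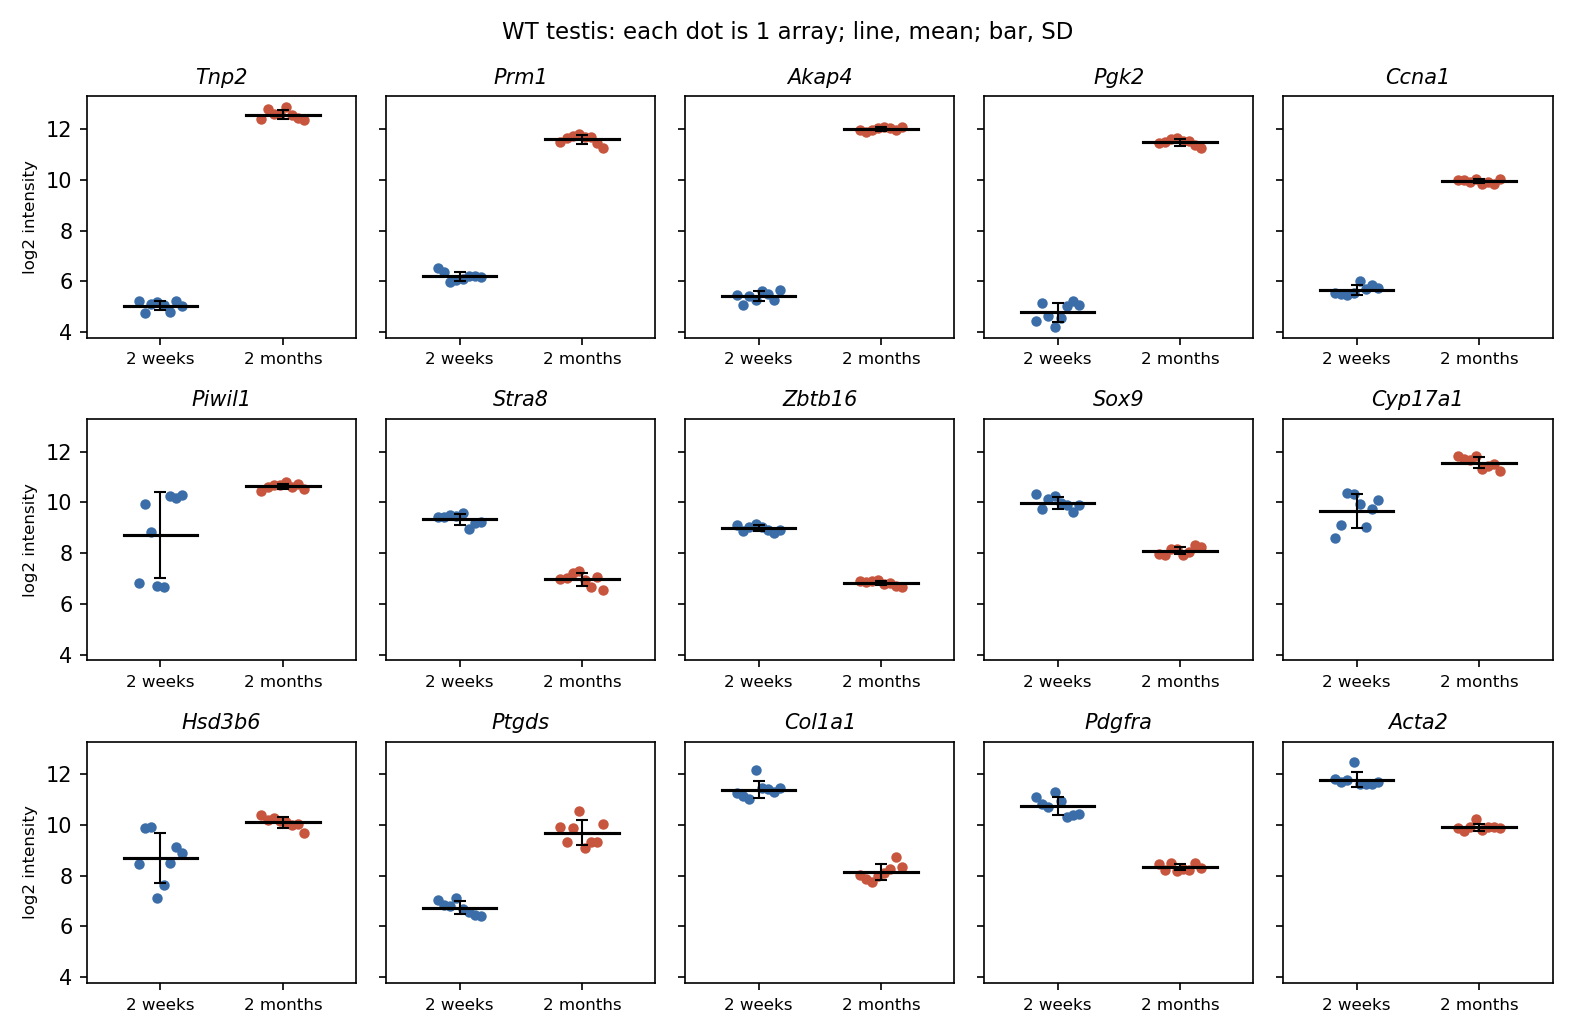
Log2 intensity (y axis) of 15 genes on each of 8 WT arrays at 2 weeks (blue) and 8 at 2 months (red), with the mean as a line and the SD as a bar. Spermatid genes such as Tnp2 and Akap4 and the spermatogonial, Sertoli and matrix genes separate the ages on every array, whereas Piwil1 and Hsd3b6 are spread widely at 2 weeks.

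Metabolic isozymes. Germ cells use their own forms of several glycolytic and mitochondrial enzymes. Of 14 such genes, 12 rose at least 2-fold (median 2.5), and of 13 somatic counterparts 11 fell at least 2-fold (median -1.32). Gapdhs, the sperm glyceraldehyde-3-phosphate dehydrogenase, was at 5.25 to 5.76 (median 5.65) and then 12.24 to 12.69 (median 12.46), a 116-fold rise. Its somatic form Gapdh was at 12.2 to 12.53 (median 12.34) at 2 weeks and 10.62 to 11.04 (median 10.95) at 2 months, a fall of 1.45 (adjusted p = 1.9e-13). Aldoart1, a germ cell aldolase, rose at least 26-fold and its relative Aldoart2 10.9-fold. Cycs, somatic cytochrome c, fell by 1.63, while its testis form Cyct rose by 0.99. A pair of genes broke the pattern of their lists. Ldha, a lactate dehydrogenase subunit counted as somatic, rose 3.08-fold, from 8.09 to 9 (median 8.69) to between 10.11 and 10.37 (median 10.22), and Slc25a31, the germ cell ADP/ATP carrier, fell by 0.9 from a mean of 10.57.

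X-linked genes and retrogenes. The X chromosome is silenced in meiotic prophase, and several X-linked housekeeping genes have autosomal retrogene copies that are used in germ cells. All 7 X-linked parents tested fell, 4 of them at least 2-fold (median -1.03), and 8 of 9 retrogenes rose, 6 at least 2-fold (median 1.48). Pgk2, the germ cell phosphoglycerate kinase, was at 4.2 to 5.23 (median 4.83) at 2 weeks and 11.24 to 11.65 (median 11.49) at 2 months, a 103-fold rise. Its parent Pgk1 went from between 8.47 and 9.15 (median 8.8) to between 7.53 and 7.93 (median 7.75), a 2.04-fold fall. No array of one age reached the range of the other for either gene. Probe sets of such copies can share signal, since the sequences are similar.

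In 6 pairs with both copies tested, the change of the retrogene was compared with that of its parent through the difference of their levels on each array, with an exact two-sided permutation test over all 12870 splits of the 16 arrays. The retrogene's change exceeded the parent's by 7.72 for Pgk2, 3.66 for Cetn1 (a centrin), 3.15 for Pdha2 (a pyruvate dehydrogenase subunit), 1.94 for Rbmxl2 (an RNA-binding protein) and 1.51 for Rpl39l (a ribosomal protein). Each of these 5 had p = 0.00016 by this exact test, the smallest it can give, and 0.00019 adjusted over the 6 pairs. The genes were chosen with earlier results of these data known, and the ages did not overlap in 58.7% of all genes. Other pairs of genes were not tested, so these p-values show nothing particular to retrogenes. The margin was 0.35 for Cstf2t, a polyadenylation factor (exact p = 0.028, adjusted 0.028). Cstf2t itself did not pass the test (change 0.02, adjusted p = 0.81), with 6.74 to 7.19 at 2 weeks and 6.83 to 7.27 at 2 months. Rbmxl2 rose by 0.46 (adjusted p = 0.013), but its change was 0.28 (adjusted p = 0.15) without the 4 arrays high in Adam7 and 0.3 (adjusted p = 0.15) among replicates 5 to 8. Of the 4 arrays high in Adam7, 2-week replicates 1 and 4 were also low in genes of mid prophase, as given below. Which feature mattered was not tested.

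**Figure D3:**
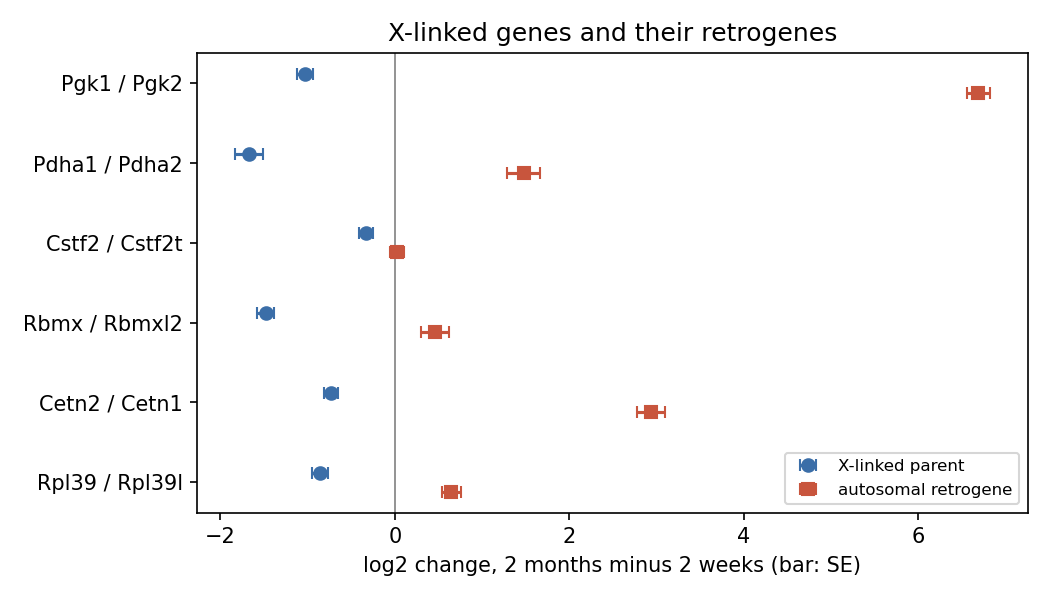
Log2 change between the ages (x axis, bars are SE, 8 WT arrays per age) for 6 X-linked parent genes (blue circles) and their autosomal retrogenes (red squares). Every parent lies below 0 and every retrogene to the right of its parent, from a margin of 0.35 for Cstf2t to 7.72 for Pgk2.

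Other X-linked genes were grouped by the stage at which they are known to act. Of 8 X-linked genes of spermatogonia and early spermatocytes, 7 fell at least 2-fold (median -1.94). Tex11, which acts in meiotic recombination, fell 4.98-fold, Usp26, a deubiquitinase, 4.22-fold and Taf7l, a germ cell TFIID subunit, 3.89-fold. Fthl17a, a ferritin-like gene, rose by 1.17. All 6 X-linked spermatid genes rose at least 2-fold, among them Cylc1 (at least 12.6-fold), Cypt1 (26-fold) and Cypt2 (at least 9.16-fold).

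Meiosis. Genes of meiotic entry and of early prophase were mostly lower at 2 months, and genes of pachytene and later higher. Of 26 early genes, 18 fell, 8 of them at least 2-fold, and 7 rose, 2 at least 2-fold (median -0.74). Stra8, the retinoic acid target that starts meiosis, was at 8.93 to 9.57 (median 9.42) and then 6.54 to 7.28 (median 7), a 5.18-fold fall (adjusted p = 2.5e-13). Dmc1, the meiotic recombinase, went from 9.58 to 10.21 (median 9.9) to between 8.1 and 8.43 (median 8.24), a 3.15-fold fall. Prdm9, which sets recombination hotspots, and Rad21l, a meiotic cohesin subunit, each fell 3.61-fold. The 2 members that rose at least 2-fold were Syce1, of the synaptonemal complex, by 1.36, and Spo11, which cuts the DNA for recombination, by 1.06. Without 2-week replicate 1, without 2-week replicate 4, or without the 4 arrays high in Adam7, which include both, only 1 of the early genes rose at least 2-fold.

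Of 12 genes of pachytene to the meiotic divisions, 11 rose, 8 at least 2-fold (median 1.48). Ccna1, the meiotic cyclin, was at 5.47 to 6.03 (median 5.62) on the 2-week arrays and 9.84 to 10.04 (median 9.95) on the 2-month arrays, a 19.4-fold rise. Papolb, a spermatid poly(A) polymerase, rose 9.08-fold. Tdrd6, of the chromatoid body, rose 18.4-fold, from a wide 4.9 to 7.31 (median 6.45) at 2 weeks. Among 21 piRNA pathway genes, which silence transposons, 12 rose and 6 fell (median 0.33). Gtsf1 rose 4.09-fold and Tdrd7 2.71-fold, whereas Mov10l1, the helicase that makes piRNA precursors, fell by 1 and Pnldc1, which trims them, fell by 1.02. The count of piRNA genes that fell at least 2-fold, 2 here, was 0 on centred arrays and 0 or 1 without any of 2-week replicates 2, 6, 7 and 8 and 2-month replicates 1, 2, 5 and 6. Of 14 regulators of spermatid genes, 9 rose at least 2-fold (median 1.65): Fhl5, an activator partner of CREM, rose 18.6-fold, Ddx25 4.83-fold and Crem itself 4.76-fold.

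The 2-week arrays were unequal in the genes of mid prophase. Piwil1, a piRNA-binding protein, read 6.8, 9.92, 8.83, 6.71, 6.66, 10.26, 10.16 and 10.28 on replicates 1 to 8. Replicates 1, 4 and 5 were thus low, replicate 3 was between, and replicates 2, 6, 7 and 8 were near the 2-month range of 10.44 to 10.78. Adam2, a sperm surface protein, had the same arrays low, between and high at 2 weeks: 6.32, 9.41, 8.38, 6.06, 6.29, 9.86, 9.63 and 9.77. H1f6 read 6.69, 8.51, 7.6, 6.21, 6.49, 8.67, 8.57 and 8.72. Tdrd6 spanned 2.41 units over the 2-week arrays, Spo11 spanned 1.45 and Pgk2 spanned 1.03, all lowest on replicate 4. The means of the acrosome list (5.59 to 6.92) and the flagellum list (6.01 to 7.4) were also spread. Dmc1 and Stra8, and Ccna1 and Tnp2, stayed within 0.64 units or less across the same 8 arrays. The labels give the age only as 2 weeks or 2 months, and the exact age of each mouse was not given in the sources used here.

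Over all genes the median SD was 0.165 at 2 weeks and 0.142 at 2 months, but 196 genes had an SD over 1 at 2 weeks and 15 at 2 months. Of those 196, 156 rose at least 2-fold and 8 fell. For such genes the size of the change rests on which 2-week arrays are averaged. Piwil1 rose 3.79-fold (adjusted p = 0.003), with a change of 2.53 among replicates 1 to 4 but 1.31 among replicates 5 to 8 (adjusted p = 0.11), and 1.25 without the 4 arrays high in Adam7. Those 4 include 2-week replicates 1 and 4, which were also low in Piwil1 (6.8 and 6.71). Gk2, a retrogene of glycerol kinase, rose 26.2-fold, by 5.35 among replicates 1 to 4 and 4.08 among replicates 5 to 8.

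**Figure D4:**
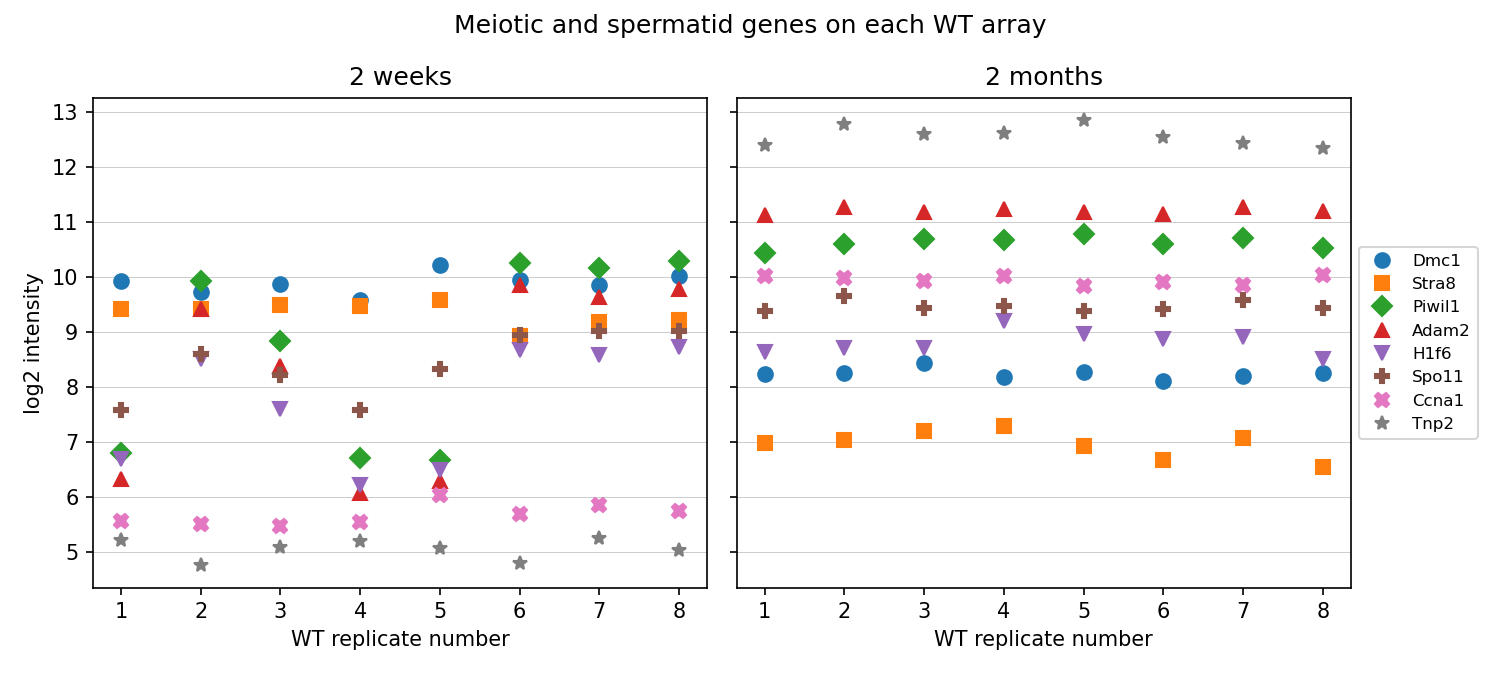
Log2 intensity (y axis) of 8 germ cell genes on each WT array (x axis, replicate number) at 2 weeks (left) and 2 months (right). Replicates 1, 4 and 5 at 2 weeks are low in Piwil1, Adam2 and H1f6, while Dmc1, Stra8, Ccna1 and Tnp2 are even across the 2-week arrays, and at 2 months each gene lies in a narrow band.

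Spermatogonia and dividing cells. Of 16 genes of spermatogonial stem cells, 11 fell, 6 at least 2-fold, and 1 rose (median -0.65). Zbtb16, a factor of undifferentiated spermatogonia, was at 8.79 to 9.15 (median 8.97) and then 6.68 to 6.93 (median 6.83), a 4.45-fold fall with an adjusted p of 1.6e-16. Ret, the receptor for GDNF, fell 3.44-fold, Sall4 3.44-fold and Foxo1 3.76-fold. Foxo1 and Sall4 have 2 probe sets each, and their averages gave -1.22 and -1.06. Id4 (change 0.31, adjusted p = 0.061), Etv5, Eomes and Pax7 did not pass the test, and Lhx1 rose by 0.4. Gfra1, the GDNF co-receptor, fell by 0.91.

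Of 10 genes of differentiating spermatogonia, 7 fell at least 2-fold (median -1.54). Ccnd2, a cyclin, went from 9.3 to 10.13 (median 9.43) to between 6.63 and 7.19 (median 7), a 6.11-fold fall. Uchl1 fell 3.55-fold, and the average of its 2 probe sets gave -1.05. Crabp1, a retinoic acid binding protein, fell 3.41-fold and Kit, the stem cell factor receptor, fell by 1.42. Dmrtb1, of the same list, rose 3.48-fold, from 7.93 to 8.33 (median 8.18) to between 9.78 and 10.19 (median 9.93). Of 16 cell cycle genes, 13 fell, 7 at least 2-fold (median -0.77). The replication helicase subunits Mcm2, Mcm4 and Mcm5 fell 4.8-fold, 4.55-fold and 3.43-fold, and Ccna2, the S-phase cyclin, 4.28-fold. Mcm7 had a change of 0.07 (adjusted p = 0.39). The 2 that rose were Plk1, a mitotic kinase, by 1.32, and Ccnb2, a cyclin, by 1.3. Other listed genes of division, Cdk1, Aurkb, Bub1 and Top2a, were among the 13 that fell.

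Sertoli cells. Sertoli cells stop dividing around the younger age and then support a growing number of germ cells. All 8 Sertoli transcription factors tested fell at least 2-fold (median -1.43), and in all 8 the ages did not overlap. Sox9, the factor that sets Sertoli fate, was at 9.6 to 10.31 (median 9.95) and then 7.92 to 8.33 (median 8.1), a 3.66-fold fall (adjusted p = 1.6e-12). Dmrt1, which keeps that fate, fell 4.21-fold, Nr0b1 2.83-fold and Wt1 2.81-fold. All 10 genes of the FSH, AMH and inhibin axis fell, 6 at least 2-fold (median -1.05). Fshr, the FSH receptor, fell 4.04-fold, Inha, the inhibin alpha subunit, 3.24-fold and Inhbb, a beta subunit, 2.42-fold. Amh, the hormone of immature Sertoli cells, went from 6.96 to 7.84 (median 7.24) to between 5.28 and 5.87 (median 5.45), a 3.61-fold fall.

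The barrier genes fell less evenly. Of 9, 6 fell, 4 at least 2-fold (median -0.85). Cldn11, the tight junction protein that the barrier needs, was at 11.65 to 11.83 (median 11.7) at 2 weeks and 9.9 to 10.23 (median 10.09) at 2 months, a 3.09-fold fall. Ocln fell 4.18-fold, Jam2 and Gja1, the main gap junction protein, each 2.66-fold. Cdh2 (change 0.1, adjusted p = 0.12), Cldn3 (0.28, adjusted p = 0.26) and Cldn5 (0.04, adjusted p = 0.63) did not pass. Of 12 secreted or androgen-dependent Sertoli genes, 10 fell, 6 at least 2-fold (median -1.06). Shbg, which encodes the androgen-binding protein, went from 10.71 to 11.14 (median 10.91) to between 7.92 and 8.3 (median 8.16), a 6.73-fold fall (adjusted p = 8.1e-17). Drd4 and Tubb3 each fell 3.18-fold and Cst12, a cystatin, 2.83-fold. Rhox5, an androgen target, fell by 0.19, Tsx did not pass (change -0.05, adjusted p = 0.83), and Aqp8, a water channel, rose by 0.73. All 9 niche growth factors fell, 6 at least 2-fold (median -1.39). Kitl, the ligand of KIT, fell 4.99-fold, Igf1 5.13-fold, Bmp4 4.16-fold, and Dhh, the Sertoli signal to Leydig and myoid cells, 2.99-fold. Gdnf, the stem cell factor of the niche, fell by 0.93.

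Leydig cells and steroid synthesis. Of 10 steroid synthesis genes, 5 rose, 4 at least 2-fold, and 4 fell (median 0.35). Cyp17a1, which makes androgens from progestins, was at 8.58 to 10.35 (median 9.85) and then 11.25 to 11.83 (median 11.58), a 3.76-fold rise (adjusted p = 1.9e-07). Hsd3b6, the adult isoform of 3-beta-hydroxysteroid dehydrogenase, ranged from 7.11 to 9.9 (median 8.7) at 2 weeks and from 9.69 to 10.4 (median 10.13) at 2 months. It rose 2.67-fold (adjusted p = 0.00047), and 1 array of 2 months lay within the 2-week range. Hsd3b1, its early isoform, fell by 0.63. Cyp11a1, the enzyme of the first steroid step, rose 2.2-fold, but the average of its 2 probe sets gave a change of 0.29. Hsd17b3, which makes testosterone, rose 2.12-fold.

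Among 6 adult Leydig genes tested, 4 rose at least 2-fold (median 1.25). Ptgds, a prostaglandin synthase, went from 6.39 to 7.12 (median 6.73) to between 9.09 and 10.56 (median 9.6), a 7.74-fold rise, and Sult1e1, an oestrogen sulphotransferase, rose 4.16-fold. Hsd11b1 fell by 0.16, and Vcam1 did not pass (change -0.14, adjusted p = 0.23). Insl3 and Lhcgr were not analysed here. Of 8 genes of fetal or progenitor Leydig cells, 7 fell, 5 at least 2-fold (median -1.65). Pdgfra, a receptor of the progenitors, fell 5.35-fold from 10.3 to 11.28 (median 10.76) to between 8.18 and 8.49 (median 8.27). Ptch1, the hedgehog receptor, fell 5.79-fold, Thbs2 4.95-fold and Nr2f2, a progenitor factor, 3.83-fold. Crhr1 had a change of -0.02 (adjusted p = 0.74). In cholesterol synthesis and uptake, 9 of 13 genes fell and 4 rose (median -0.72). Fdft1, squalene synthase, rose 3.28-fold and Cyp51, the lanosterol demethylase, 2.62-fold, whereas the regulators Srebf2 and Insig1 fell 3.02-fold and 2.47-fold.

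Matrix, vessels and interstitial cells. Of the lists, collagens and matrix had the lowest median change. All 21 collagen and matrix genes fell and the ages did not overlap in any, 20 of them at least 2-fold (median -2.22). Col1a1, a chain of type I collagen, was at 11 to 12.16 (median 11.35) at 2 weeks and 7.75 to 8.74 (median 8.06) at 2 months, a 9.6-fold fall (adjusted p = 3e-13). Col3a1 fell 9.31-fold and Col1a2 9.15-fold. Dpt, a dermal matrix protein, fell 10.2-fold and Mmp2, a gelatinase, 7.81-fold. Only Timp1, an inhibitor of such enzymes, missed a 2-fold change; it fell by 0.88. The named gene with the deepest fall was Nrk, an X-linked kinase known from placenta and fetal tissue, at 9.34 to 10.4 (median 9.85) and then 5.91 to 6.58 (median 6.26), a 12.3-fold fall. Itm2a fell 9.86-fold, Eln, elastin, 9.85-fold, Cnn3 9.16-fold, and the matrix proteases Adamts9 and Adamts5 fell 9.03-fold and 8.64-fold.

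All 10 genes of an imprinted growth network, which is known to decline in many organs after birth, fell, 7 at least 2-fold (median -1.3). Peg3 went from 9.77 to 11.06 (median 10.14) to between 7.15 and 7.76 (median 7.41), a 6.86-fold fall. Igf2r fell 2.94-fold, Mest 3.54-fold, and Plagl1 3.3-fold; the average of its 2 probe sets gave -0.89. Zim1, an imprinted neighbour of Peg3, fell 8.03-fold. Igf2 fell by 1.35 and Dlk1 fell by 1.26.

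Of 7 genes of peritubular myoid and smooth muscle cells, 6 fell, 4 at least 2-fold, and 1 rose (median -1.42). Acta2, smooth muscle actin, was at 11.6 to 12.46 (median 11.68) and then 9.77 to 10.21 (median 9.89), a 3.67-fold fall. Myh11 fell 3.51-fold and Cnn1 2.9-fold. Actg2, the enteric smooth muscle actin, rose 5.8-fold, from 6.69 to 9.2 (median 7.02) to between 9.49 and 10.25 (median 9.79). The summed level of this list stood apart on 2-week replicate 4, with a mean of 9.91 against 8.1 to 8.54 on the other 2-week arrays. Without that array the changes were -1.78 for Acta2, -1.62 for Myh11, -1.22 for Cnn1 and 2.81 for Actg2. Its part in the matrix result was measured too: Col1a1 was -3.15 and Dpt -3.09 without it.

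Of 9 endothelial genes, 8 fell, 5 at least 2-fold (median -1.03). Cdh5, the junction cadherin of vessels, fell 3.87-fold, Eng 3-fold, Kdr, the main VEGF receptor, 2.92-fold and Emcn 2.76-fold, while Vwf rose by 0.39. Macrophage genes moved less. Of 14, 10 fell but only Cd68, a lysosomal protein, at least 2-fold (2.02-fold), and the median was -0.44. Csf1r, the macrophage growth factor receptor, fell by 0.75 and Lyz2 fell by 0.83. The antigen presentation genes H2-Ab1 and H2-Aa rose by 0.83 and 0.42. They were the only 2 of the 14 that rose, and H2-Eb1, also of antigen presentation, did not. Cd68 fell by less than 2-fold on centred arrays, and without 2-week replicate 2 or 3 or 2-month replicate 1, 2 or 5.

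Protein kinase A. The study's lines delete Prkar1a, the type I regulatory subunit that holds this cAMP-dependent kinase inactive, so its subunits are given for the WT. Prkar1a itself was at 8.84 to 9.14 (median 8.97) at 2 weeks and 8.61 to 9 (median 8.88) at 2 months. Its change of -0.14 ± 0.07 did not pass (adjusted p = 0.069, 95% interval -0.28 to 0), and passed under 8 of the 29 alternatives tried. Of the 8 genes of this group 2 rose, 3 fell and 3 did not pass. Prkar2a, a type II regulatory subunit of sperm tails, rose 4.86-fold, from 8.05 to 9.1 (median 8.5) to between 10.45 and 11.13 (median 10.83). Prkar2b, its relative, fell 4.7-fold, from 9.14 to 9.67 (median 9.47) to between 7.01 and 7.58 (median 7.08). Of the catalytic subunits, Prkacb fell 2.94-fold and Prkaca had a change of 0.03 (adjusted p = 0.6). Prkar1b, the other type I regulatory subunit, had a change of 0.11 (adjusted p = 0.28). Of the inhibitors, Pkib rose at least 21.4-fold, from 4.46 to 4.74 (median 4.53) to between 8.76 and 9.27 (median 9.05), and Pkia fell by 1.43. The median of the 8 genes was -0.06, and 0.04 on centred arrays.

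Reference genes. All 11 genes often used as constant references passed the test between the ages: 9 fell and 2 rose (median -0.69). Over all 18646 genes 81.6% passed, 54.8% lower and 26.8% higher (median -0.24), so most genes of any kind would pass. Tubb5, a tubulin, fell 4.49-fold, from 11.36 to 11.77 (median 11.52) to between 9.12 and 9.65 (median 9.39). Hprt, an X-linked purine salvage enzyme, fell 4.2-fold, from 9.72 to 10.11 (median 9.81) to between 7.33 and 8.08 (median 7.86). Gapdh fell 2.72-fold. The changes of the others that fell were -0.57 for Actb, -0.69 for B2m, -0.64 for Ywhaz, -0.74 for Gusb and -0.44 for Sdha, beside Pgk1 above. Tbp, the TATA-binding protein, rose by 0.61. Rplp0 rose by 0.44, but the average of its 2 probe sets gave -0.01 (adjusted p = 0.89). The levels that did stay close were few: 792 of the 18646 genes had a 95% interval of the change within 0.2 of 0, and 185 of these also did on centred arrays.

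**Figure D5:**
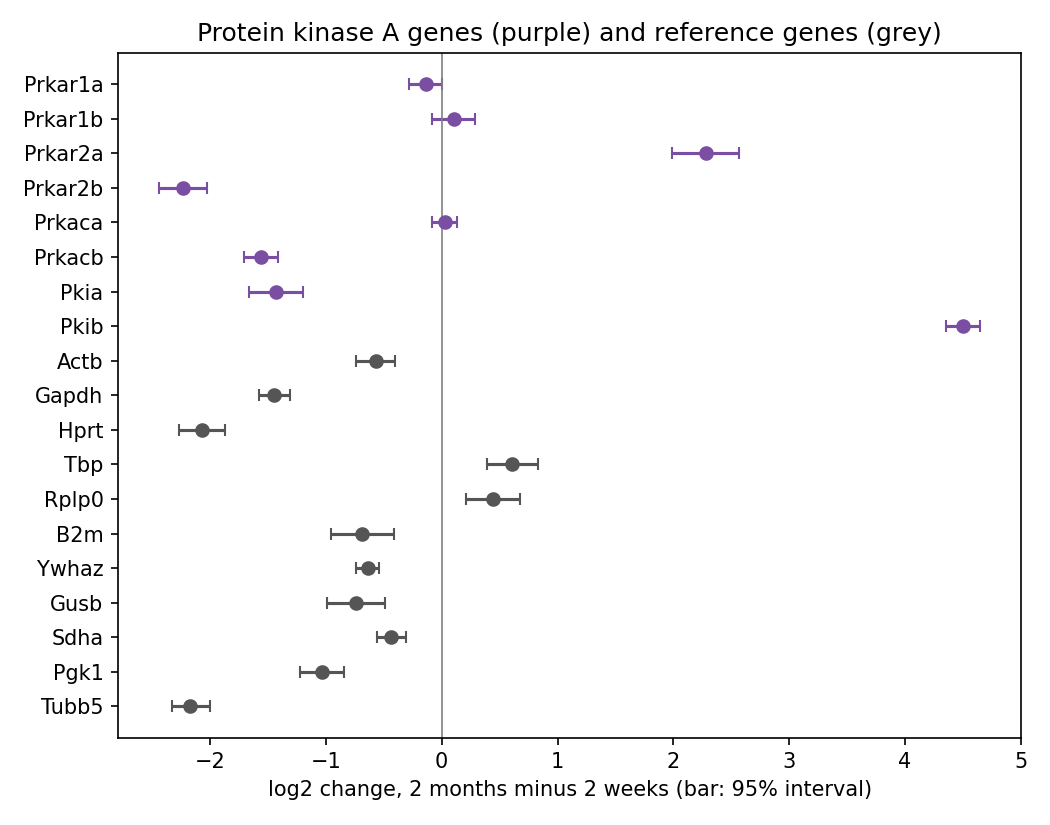
Log2 change between the ages (x axis, bars are 95% intervals, 8 WT arrays per age) of 8 protein kinase A genes (purple) and 11 reference genes (grey). Pkib and Prkar2a lie far to the right and Prkar2b, Tubb5 and Hprt far to the left, while Prkar1a, Prkar1b and Prkaca lie near 0.

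Markers of other tissues changed little. Of 5 epididymal genes, none changed 2-fold: Spag11b fell by 0.21 and Lcn5 fell by 0.19, but neither passed on centred arrays (adjusted p = 0.094 and 0.39), and the change of Adam7 was 0.15 (adjusted p = 0.59). Of 3 adrenal genes only Mrap, a melanocortin receptor partner, rose, by 0.34, and its level of 6.82 to 7.92 at 2 weeks overlapped that of 7.36 to 7.78 at 2 months; without the 4 arrays high in Adam7 it did not pass (adjusted p = 0.16). Of 4 fat genes Plin1 fell by 0.42, and Fabp4, at 8.05 on 2-week replicate 2 and 4.03 to 5.6 on the other 2-week arrays, did not pass (adjusted p = 0.61). The summed fat level on that array, a mean of 6.56, was above the 2-month range of 5.04 to 5.7. No marker of red blood cells was tested.

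MicroRNA genes. Of 267 microRNA genes tested, 18 rose and 179 fell, 5 and 30 of them at least 2-fold (median -0.4). Over all genes tested, 26.8% rose and 54.8% fell, 14.1% and 17.4% at least 2-fold (median -0.24). Changes of at least 2-fold in either direction were thus a smaller share of the microRNA genes than of all genes. Of the microRNA genes, 229 were matched by symbol to RefSeq. The probe sets read the precursor or its host transcript, not the mature microRNA. The members named here were chosen after their values were seen. For 8 of the named members, 1 mature sequence each is shown with the seed, bases 2 to 8, in capitals. The seed sets which targets a microRNA pairs with.
miR-465a-5p: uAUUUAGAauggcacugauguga
miR-883b-5p: uACUGAGAauggguagcaguca
miR-505-3p: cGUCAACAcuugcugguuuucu
let-7c-5p: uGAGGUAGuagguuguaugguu
miR-493-3p: uGAAGGUCcuacugugugccagg
miR-468-5p: gACUGAUGuacugauaagaaacucagu
miR-3088-3p: uUCAUGAGcagcugcaaaggugu
miR-344e-3p: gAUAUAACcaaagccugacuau
No seed is shared among these. Mir465 was at 5.42 to 7.43 (median 6.74) at 2 weeks and 3.7 to 4.88 (median 3.95) at 2 months, at least 3.73-fold lower (adjusted p = 1.3e-07). Mir505 fell 3.89-fold, Mir883b 3.47-fold, Mirlet7c-1 3.63-fold and Mir493 at least 2.81-fold. Mir145a, known from smooth muscle, was lower by at least 6.77-fold, from 6.81 to 8.64 (median 7.35) to between 4.2 and 5.14 (median 4.56). Upwards, Mir468 went from a wide 4.99 to 8.57 (median 7.63) to between 8.97 and 9.37 (median 9.22), a 4.33-fold rise. Mir344e rose at least 1.83-fold, Mir327 3.46-fold and Mir3088 3.11-fold.

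Maturation in the lines. Whether a line's change between the ages differed from that of the WT was tested as an interaction over 19007 genes in all 8 groups. The 3 tests share the WT arrays. The difference passed in 5351 genes for prKO (28.2%), 3278 for srKO (17.2%) and 19 for lrKO (0.1%; 1322 at an unadjusted p under 0.05). The lrKO count was 11 or 12 without any of 2-week lrKO replicates 1 and 3 and 2-month lrKO replicates 2 and 3, and 87 and 12 against WT replicates 1 to 4 or 5 to 8 alone. With array weights the counts were 4380 for prKO, 4975 for srKO and 50 for lrKO, so that the order of prKO and srKO turned. Prnd, which encodes doppel, a sperm and Sertoli cell protein, rose 5.61-fold in the WT, from 6.81 to 7.75 (median 7.28) to between 9.39 and 10.12 (median 9.8). In prKO it was at 6.56 to 7.07 and then 5.65 to 5.92, so that the changes differed by -3.58 ± 0.21 (adjusted p = 3.9e-14), and in srKO at 7.14 to 7.68 and then 5.67 to 6.43 (difference -3.72 ± 0.2). All 2-month arrays lay above the 2-week arrays in the WT and below them in both lines. The average of its 2 probe sets gave a WT change of 1.15. Bpifa3 rose 18.9-fold in the WT, to between 8.7 and 9.47, but reached only 5.13 to 6.78 in srKO (difference -3.2 ± 0.26).

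Other genes rose in a line far more than in the WT. Ifi205, an interferon-inducible gene, was at 4.65 to 5.43 in 2-month WT and 8.63 to 9.92 in prKO (difference 3.68 ± 0.39, adjusted p = 1.6e-08). Serpina3n, an acute-phase protease inhibitor, reached 8.34 to 10.34 in srKO against 5.36 to 7.11 in the WT (difference 3.2 ± 0.61, adjusted p = 0.00022). In lrKO, Cdca7l fell from between 8.21 and 8.52 to between 6.22 and 6.63, further than in the WT (difference -1.25 ± 0.19, adjusted p = 0.0013). Klk1b22, a kallikrein of a family of near-identical genes, rose at least 8.07-fold in the WT but stayed at 4.69 to 5.29 in 2-month lrKO (difference -2.85 ± 0.6, adjusted p = 0.039), a call lost under 20 of 30 alternatives. Cd36, a fatty acid and lipoprotein receptor, rose 2.27-fold in the WT (difference -1.63 ± 0.34, adjusted p = 0.039), and its difference was lost under 19 of 30.

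The age calls were much the same from either set of replicates. With replicates 1 to 4 alone 13588 genes passed, with replicates 5 to 8 alone 14266, and 12585 passed in both, which is 92.6% and 88.2% of each; 12581 of these had the same direction. Most of the 18646 genes passed in each set, so a large overlap would arise by chance alone. Of the 5879 genes called with at least 2-fold change on all 16 arrays, 5851 passed in both sets in the same direction. The 5879 were chosen on the arrays that make up both sets, so this last count is no independent check. Replicates are labelled as biological, and p-values set the difference between the ages against the spread between samples of the same age.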

How the data were processed

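Total RNA of whole mouse testes was measured on Affymetrix whole-transcript arrays, 1 array per sample. The deposited values are log2 intensities summarised by RMA, per the submitters' processing notes. They were used as deposited and ran from 2.54 to 13.62; the array's genome build was not given in the sources used here. Of 41345 probe sets, 23521 carried 1 gene symbol, 1814 several and 16010 none in the platform annotation, and the 23521 named 22180 genes. Where a gene had several probe sets (1082 genes), the brightest by its mean on all 39 arrays stood for it. Genes whose mean was above the 25th percentile of all values (4.62) in at least 1 of the 2 WT groups were tested (18646).

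Ages were compared with limma 3.58.1 (lmFit and eBayes, two-sided) in R 4.3.3 over the 16 WT arrays with no covariate, with Benjamini-Hochberg adjustment and a threshold of 0.05; the script was tested on simulated data. The line comparison used all 8 groups in 1 model. Genes and the 38 lists (447 genes, 403 tested) were chosen with earlier results of these data known, so no list received a test of its own. The genes named are Prkar1a, the 12 largest rises and 12 largest falls, for every list at most 4 members that changed most, all reference genes and retrogene pairs, and 3 interaction genes per line; model, clone and microRNA names and receptor families were passed over. Further list members are named to account for exceptions, with their values known. No 2 arrays held identical values. Replicate numbers are shared by both ages; same-numbered arrays correlated in their deviations from the group means at 0.04 to 0.35, over 0.1 in 6 of 8 numbers, and were not treated as pairs.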

Additional observations from a re-analysis of the deposited data

Results flagged for a closer look

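A single array stood apart from the other 7 of its age in 33 of 356 combinations of gene and age and in 6 of 74 of list and age; chance gives about 1 in 20. Of these, 2-week replicate 4 was high in matrix and muscle genes: Col1a1 12.16, Col3a1 11.62, Col1a2 11.92, Mmp2 10.2, Acta2 12.46, Actg2 9.2, Myh11 11.87 and Cnn1 10.25, with the mean of the collagen and matrix list at 10.1 and of the myoid list at 9.91. The same array was high in the imprinted genes Mest (9.5) and Igf2r (9.07), the endothelial genes Kdr (8.67) and Emcn (8.16), Cox7b (7.11) and the mean of the reference genes (10.44). At 2 months, replicate 4 was high in Acta2 (10.21), Cnn1 (7.26), Lyz2 (7.76) and the mean of the myoid list (8.07).

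On 2-week replicate 2 the fat genes were high: Fabp4 8.05, Cidec 5.99, Adipoq 5.42 and their list mean 6.56. At 2 months replicate 1 stood apart in Amh (5.87), Ywhaz (11.35), Cyp11b1 (5.31), Plin1 (6.39), Serpina3n (7.11) and the mean of the piRNA list (9.15). The remaining single values were Eln 5.5 (2-month replicate 3), Col3a1 7.99 (2-month replicate 7), Rpl10l 10.02 and Gusb 6.4 (2-month replicate 8), Crem 9.74 (2-month replicate 5), Gapdh 10.62 (2-month replicate 2), Lyz2 8.7 (2-week replicate 3), and Pkib 4.74 and Klk1b22 4.96 (2-week replicate 1).

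The change between the ages differed between a line and the WT, by the interaction test, for Ifi205 (3.68), Ctla2a (3.58, adjusted p = 5e-06) and Prnd (-3.58) in prKO, for Prnd (-3.72), Bpifa3 (-3.2) and Serpina3n (3.2) in srKO, and for Klk1b22 (-2.85), Cd36 (-1.63) and Cdca7l (-1.25) in lrKO. Over their alternatives the adjusted p of Klk1b22 ran from 0.00041 to 0.37 and that of Cd36 from 0.00048 to 0.13, while that of Cdca7l stayed between 1.9e-05 and 0.0063.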

How the results depend on the processing

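The counts of genes called between the ages stayed within 1.5 times under every alternative tried (no or a stricter filter, averaged probe sets, renewed quantile normalization, centring, array weights, trend and robust settings, all groups in 1 model, a test against 2-fold, single sets of replicates). Leaving out 1 array gave 14939 to 15298 genes called, 4918 to 4986 higher and 9978 to 10354 lower, and 2606 to 2661 higher and 3101 to 3293 lower at least 2-fold. The interaction counts moved more: leaving out 1 array gave 4503 to 5539 genes for prKO, 2447 to 3527 for srKO and 11 to 20 for lrKO. Array weights gave 4380 genes for prKO, 4975 for srKO and 50 for lrKO, and lrKO against WT replicates 1 to 4 alone gave 87, against replicates 5 to 8 alone 12 (chosen after seeing the data, as was leaving out the 4 arrays high in Adam7); the cause was not tested. The same-numbered arrays were not pairs by design: with the number as a replicate block 15428 genes were called, and 5368, 3429 and 15 in the interactions, and 3 of 8 arrays correlated best with their own number. Of the 178 named genes, 166 kept their call under every one of the 29 alternatives in which they were tested. Genes that missed the stricter filter (5.94) were not tested there. These 166 kept the same direction where they were called (Fabp4, not called, was -0.27, and 0.43 with replicates 5 to 8). Rplp0 reversed to -0.01 with averaged probe sets, and the other 11 changed only in their call. Of 2204 recomputed list counts 26 moved by over 1.5 times, in the macrophage, piRNA, early meiotic and germ cell isozyme lists. Genes near 4.62 have bounded folds only.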

Other observations

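Some genes outside the lists were uneven between arrays of one age and were chosen after their values were seen. Ifi204, an interferon-inducible gene, read 7.07, 7.41 and 7.74 on 2-week replicates 6, 7 and 8 but 3.27 to 4.21 on replicates 1 to 5. At 2 months Mid1 read 9.31 to 9.75 on replicates 1 to 4 and 7, but 6.74, 6.56 and 7.44 on replicates 5, 6 and 8. Rabggtb, a prenylation subunit, read 6.4 to 7.59 on 2-month replicates 1 to 4 and 4.21 to 5.17 on replicates 5 to 8. Rps13, a ribosomal protein, read 3.19 on 2-month replicate 3 and 6.8 to 8 on the other 7 arrays. Ptgs2, an inducible prostaglandin synthase, read 8.44 on 2-month replicate 4 and 4.07 to 4.3 on the others.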
